A study of Homo sapiens with 45 samples.

Results

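NFYA, NFYB and NFYC encode the 3 subunits of NF-Y, the transcription factor that binds the CCAAT box of many promoters. They were found as the rows with these symbols, 3 of 15698 genes in the expression table, and all 3 passed the filter on low values. The table holds RNA-seq of 45 libraries from a vorinostat-resistant derivative of HCT116, a human colorectal carcinoma cell line. Vorinostat is a histone deacetylase inhibitor used against cancer. Cells were reverse transfected with a pool of siRNAs against 1 of 14 genes (BEGAIN, CCNK, CDK10, DPPA5, EIF3L, GLI1, JAK2, NFYA, POLR2D, PSMD13, RGS18, SAP130, TGM5 or TOX4) at 40 nM, or with lipid alone (mock), and harvested after 48 h. Each of the 15 conditions was prepared in 3 independent experiments. No vorinostat treatment appears in the labels of these libraries, and the resistant line is 1 line, so no parental cells stand beside it. Bulk RNA was sequenced, so fewer cells of a kind and less RNA per cell cannot be told apart.

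NFYB and NFYC each carry a histone fold and pair with each other first, and the pair then takes up NFYA, which makes the sequence-specific contact with CCAAT. The complete trimer bends DNA and acts beside other promoter factors at genes of the cell cycle, of the endoplasmic reticulum stress response and of lipid synthesis. NFYA is regarded as the limiting, regulated subunit in many cell types.

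In GRCh37 with GENCODE 44, NFYA (ENSG00000001167) lies on the plus strand at chr6:41040713-41070142, in 10 merged exon regions of 6209 exonic bases. NFYB (ENSG00000120837) lies on the minus strand at chr12:104510864-104532019, with 10 exon regions and 4899 exonic bases. NFYC (ENSG00000066136) lies on the plus strand at chr1:41157320-41237275, with 23 exon regions and 5990 exonic bases. A stretch of 75 exonic bases of NFYA, 1.21% of its exonic length, overlaps OARD1 on the opposite strand, and the strand setting of the counting is not given in the sources used here, so reads there cannot be assigned. The processed pseudogenes NFYBP1, at chr3:109634823-109635787, and NFYCP2, at chr9:89699076-89700066, resemble NFYB and NFYC and may share reads with them. NFYBP1 had 39 to 153 reads per library (median 89) and NFYCP2 had 2 to 44 (median 22).

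The pentamer CCAAT was searched on either strand of RefSeq promoters (GRCh38.p14), from 250 bases before to 50 bases after the gene start. Of 27305 promoters, 35.7% held it. Promoter entries were found for 2 of the 3 subunits, NFYA and NFYC, and each held 1 match. In NFYC the match lay on the gene's strand from base -98 to -94, and in NFYA on the other strand from base 46 to 50 after the start. Of the lists of genes known to carry CCAAT boxes, 8 of 11 cell cycle promoters found (72.7%), 7 of 7 endoplasmic reticulum stress promoters and 3 of 3 lipid synthesis promoters held a match. In the list of promoter partners 3 of 12 did, and among the histone-fold relatives 1 of 4. For comparison, promoters of genes in the expression table held a match in 3807 of 10347 cases (36.8%). The cell cycle, stress and lipid lists were chosen for their CCAAT boxes, so their counts describe the choice. The sequences below show the only match in NFYA (chr6:41072994-41073023, plus strand) and in NFYC (chr1:40691454-40691703, plus strand), and the repeated boxes of CCNB2 (chr15:59104896-59105145, plus strand), which encodes a mitotic cyclin, and of HSPA5 (chr9:125241344-125241593, minus strand), which encodes the chaperone BiP. Capitals mark CCAAT, or ATTGG where the box is on the other strand.
NFYA: gcggcagcggcggctggagcctctgATTGG
NFYC: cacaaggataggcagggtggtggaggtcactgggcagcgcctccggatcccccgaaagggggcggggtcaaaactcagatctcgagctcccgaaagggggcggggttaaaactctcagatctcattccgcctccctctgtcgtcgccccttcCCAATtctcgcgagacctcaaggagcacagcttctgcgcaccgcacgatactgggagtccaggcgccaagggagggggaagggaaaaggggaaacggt
CCNB2: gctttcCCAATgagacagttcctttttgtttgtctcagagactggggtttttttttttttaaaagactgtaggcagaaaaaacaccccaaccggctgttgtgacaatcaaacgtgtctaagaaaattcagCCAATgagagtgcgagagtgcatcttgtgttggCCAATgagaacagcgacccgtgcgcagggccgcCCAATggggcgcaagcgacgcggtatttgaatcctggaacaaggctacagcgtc
HSPA5: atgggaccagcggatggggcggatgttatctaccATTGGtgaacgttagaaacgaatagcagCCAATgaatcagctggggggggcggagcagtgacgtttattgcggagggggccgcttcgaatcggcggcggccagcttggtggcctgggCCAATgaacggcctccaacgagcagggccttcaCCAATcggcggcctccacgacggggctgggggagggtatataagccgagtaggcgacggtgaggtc

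The NFYA stretch runs from base 21 to 50 after the start, and the others are the 250 bases before it. CCNB2 carried 4 matches, all on its own strand, and the 3 nearest the start began at bases -120, -87 and -54. HSPA5 carried 5, of which 4 are in the stretch shown and 1 lay after the start, from base 35. A match describes the letters in this window and is no measurement of binding.

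**Figure D1:**
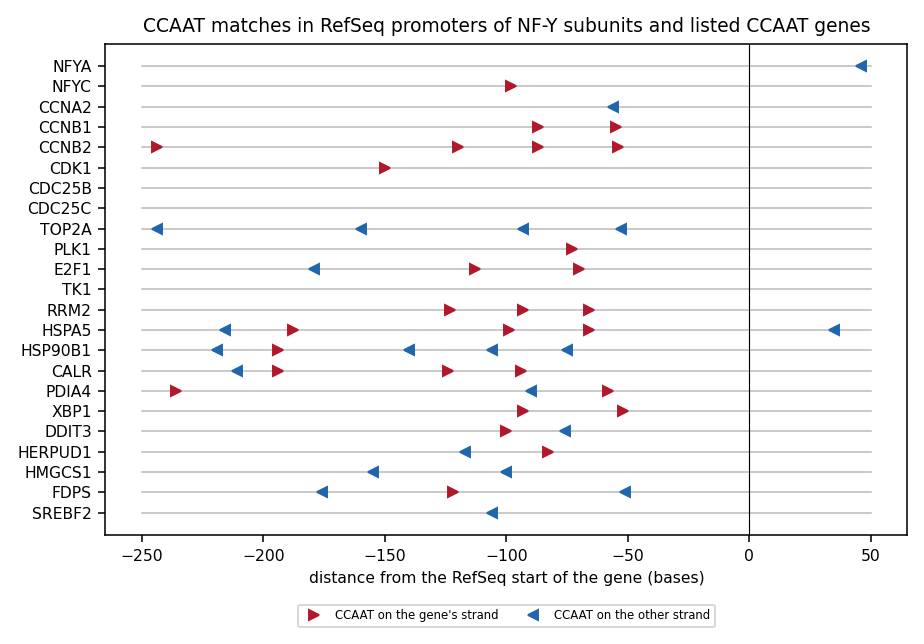
Positions of CCAAT in RefSeq promoters of NFYA, NFYC and the listed CCAAT genes. The horizontal axis gives the distance from the gene start in bases, grey lines span the window searched, and triangles mark the first base of a match on the gene's strand (red, pointing right) or on the other strand (blue, pointing left). NFYA and NFYC hold 1 match each, CCNB2 4 and HSPA5 5.

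Before any comparison, the siRNA targets were read in the libraries as the study's sample list names them. Of the 14 targets, 11 were in the expression table, and of the 33 places among the 3 lowest libraries of each target, 3 were filled by a library listed with its own siRNA. For NFYA itself, the libraries listed as siNFYA had log2 counts per 1000000 reads (log2 CPM) of 5.67, 5.35 and 5.33, and the libraries listed as mock had 5.38, 4.93 and 5.28. The 3 lowest NFYA values belonged to libraries listed as siPSMD13 replicate 1, siEIF3L replicate 2 and siPOLR2D replicate 2. The target genes therefore go against the list, and conditions below are given as listed, with no direction drawn from them and no library moved to another condition. Depth was 7569592 to 21149597 reads per library (median 11551126), at which 3 reads correspond to a log2 CPM of at most -1.07, far below every value of the 3 subunits. Epithelial markers of the line were high in every library, with EPCAM at 8.18 to 9.04 and KRT8 at 9.53 to 11.10 log2 CPM. VIL1 was not among the genes listed, nor were PTPRC, CD3E, PECAM1 and COL1A2, markers of other cell types. The fibroblast genes VIM (0.82 to 3.37) and COL1A1 (2.19 to 4.42) were low.

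All 3 subunits were measured well above the floor in each of the 45 libraries, and none was constant. NFYA ranged from 4.02 (library listed as siPSMD13 replicate 1) through a median of 5.33 to 6.38 log2 CPM (siDPPA5 replicate 2), or from 168 to 1090 reads per library with a median of 466. NFYB ranged from 4.94 (siTOX4 replicate 3) through 5.85 to 6.59 (siPOLR2D replicate 2), from 336 to 1078 reads with a median of 650. NFYC ranged from 4.95 (siTGM5 replicate 1) through 5.90 to 7.01 (siPSMD13 replicate 1), from 241 to 1925 reads with a median of 707. The distance from the lowest to the highest library was thus 2.36 for NFYA, 2.06 for NFYC and 1.65 for NFYB on the log2 scale. Their SDs over the 45 libraries were 0.45, 0.45 and 0.35, beside a median SD of 0.40 over all genes. Of all genes, 58.2% had a smaller SD than NFYA, 57.8% than NFYC and 38.4% than NFYB, so the spread of the subunits was ordinary for this table.

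Per length, NFYA was the least abundant of the 3. The log2 CPM per kilobase of exon had a median of 2.70 for NFYA, 3.56 for NFYB and 3.32 for NFYC. NFYB lay above NFYA in 42 of 45 libraries, and NFYC above NFYA in 39. NFYB lay above NFYC in 33, so that the order of the histone-fold subunits turned in 12 libraries.

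The first comparison the design implies is siNFYA against mock. As listed, it cannot show what a knockdown of the DNA-binding subunit does, because the target gene goes against the list. NFYA was 5.45 ± 0.19 log2 CPM in the libraries listed as siNFYA and 5.20 ± 0.24 in those listed as mock (SD, n = 3 each), a log2 fold change of 0.25 (SE 0.36, limma adjusted p = 0.988). The values of the groups overlapped. NFYB was 5.85, 5.89 and 6.02 in the listed siNFYA libraries and 5.81, 5.22 and 5.91 in the listed mock libraries, a log2 fold change of 0.27 (SE 0.29, limma adjusted p = 0.988), and the groups overlapped. NFYC was 6.01, 6.0 and 5.65 against 5.89, 5.24 and 6.12, a log2 fold change of 0.13 (SE 0.39, limma adjusted p = 0.995), and here also the groups overlapped. Without the library listed as mock replicate 2, which was lowest of the listed mock libraries in all 3 subunits, the NFYC fold change turned to -0.12 and those of NFYA and NFYB fell to 0.12 and 0.060.

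None of the 3 subunits was called, where a call needs an adjusted p under 0.05 together with a log2 change of 1 or more in size. The background is 0 calls among 15695 genes (0%), and at an unadjusted p under 0.05 it is 600 genes (3.82%), with no subunit among them. Adding voom weights from the reads recovered for each gene also gave 0 calls. Because the target gene goes against the list, this comparison describes the libraries as listed and carries no direction for the siRNA. Listed replicates of a condition never shared a set of the tree described below, so 0 calls give no measure of the siRNA's effect.

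**Figure D2:**
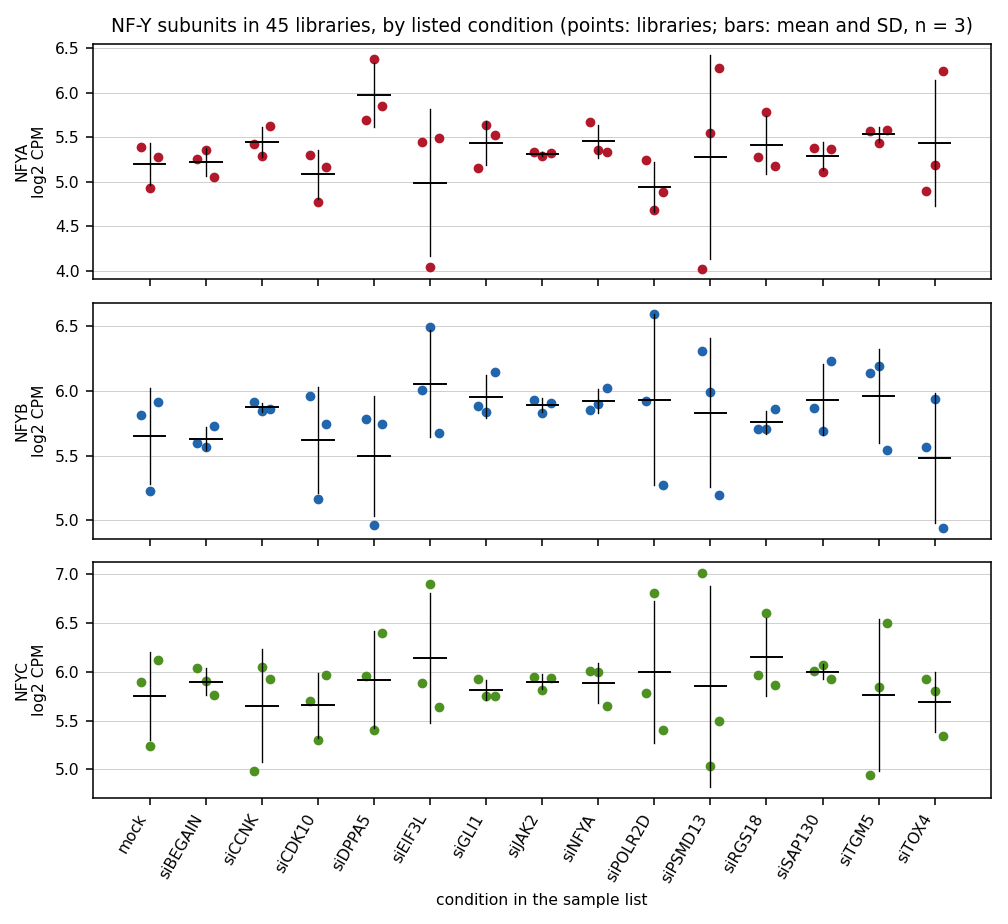
NFYA, NFYB and NFYC in 45 libraries by the condition in the sample list. The vertical axes give log2 CPM, points are libraries in the order of their replicate number, and black bars are the mean and SD (n = 3). The points of siPSMD13, siEIF3L, siPOLR2D and siTOX4 spread widest in NFYA or NFYB, and the points of siJAK2 lie close together in all 3 subunits.

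Over all 15 listed conditions, the mean level of NFYA ordered as follows (log2 CPM, mean ± SD, n = 3 each). The lowest were 4.94 ± 0.28 in siPOLR2D, 4.99 ± 0.82 in siEIF3L, 5.08 ± 0.27 in siCDK10, 5.20 ± 0.24 in mock and 5.22 ± 0.15 in siBEGAIN. The middle places held 5.28 ± 1.15 in siPSMD13, 5.29 ± 0.15 in siSAP130, 5.31 ± 0.025 in siJAK2, 5.41 ± 0.33 in siRGS18 and 5.44 ± 0.25 in siGLI1. The highest were 5.44 ± 0.71 in siTOX4, 5.45 ± 0.17 in siCCNK, 5.45 ± 0.19 in siNFYA, 5.53 ± 0.082 in siTGM5 and 5.97 ± 0.36 in siDPPA5. Each mean of NFYA differed from its neighbours in this order by less than the pooled SD within listed conditions of 0.46. The widest step was 0.44. This SD joins libraries of different sets in the tree described below, so steps below it do not show that conditions were alike. Against listed mock, the log2 fold change of NFYA ran from -0.26 (siPOLR2D) to 0.78 (siDPPA5). The latter alone of the 14 comparisons passed an unadjusted threshold of 0.05 and did not pass after adjustment (limma adjusted p = 0.658). The libraries listed as siDPPA5 came from different sets of that tree, with NFYA at 6.38 (set 2), 5.85 (set 4) and 5.69 (set 14). Their mean and p therefore describe the list and do not measure a siRNA.

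For NFYB, the histone-fold partner that NFYC binds, the lowest means were 5.48 ± 0.50 in siTOX4, 5.50 ± 0.46 in siDPPA5, 5.62 ± 0.41 in siCDK10, 5.63 ± 0.086 in siBEGAIN and 5.65 ± 0.37 in mock. The middle places held 5.76 ± 0.089 in siRGS18, 5.83 ± 0.57 in siPSMD13, 5.87 ± 0.037 in siCCNK, 5.89 ± 0.051 in siJAK2 and 5.92 ± 0.091 in siNFYA. The highest were 5.93 ± 0.66 in siPOLR2D, 5.93 ± 0.27 in siSAP130, 5.96 ± 0.16 in siGLI1, 5.96 ± 0.36 in siTGM5 and 6.06 ± 0.41 in siEIF3L. No step between neighbours exceeded the pooled SD of 0.36, and the widest was 0.13. Fold changes against listed mock ran from -0.17 (siTOX4) to 0.41 (siEIF3L), with a lowest limma adjusted p of 0.789. As for NFYA, listed conditions join libraries of different sets of the tree, so these means and fold changes describe the list and not the siRNAs.

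For NFYC the lowest means were 5.65 ± 0.58 in siCCNK, 5.66 ± 0.33 in siCDK10, 5.69 ± 0.31 in siTOX4, 5.75 ± 0.45 in mock and 5.76 ± 0.78 in siTGM5. The middle places held 5.81 ± 0.10 in siGLI1, 5.85 ± 1.03 in siPSMD13, 5.89 ± 0.20 in siNFYA, 5.90 ± 0.13 in siBEGAIN and 5.90 ± 0.075 in siJAK2. The highest were 5.92 ± 0.50 in siDPPA5, 6.0 ± 0.73 in siPOLR2D, 6.0 ± 0.074 in siSAP130, 6.14 ± 0.67 in siEIF3L and 6.15 ± 0.40 in siRGS18. No step exceeded the pooled SD of 0.51, and the widest was 0.14. Fold changes ran from -0.097 (siCCNK) to 0.40 (siRGS18), with a lowest limma adjusted p of 0.926. In the 14 comparisons, which share the listed mock libraries, none of the subunits was called, beside 0 calls in 219730 tests over all genes (0%). With listed replicates spread over different sets of the tree described below, 0 calls do not show that the siRNAs had no effect.

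The listed replicates of a condition differed in these genes about as much as libraries of different listed conditions. Between listed replicates of a condition, the median difference was 0.31 in NFYA, 0.30 in NFYB and 0.40 in NFYC over 45 pairs. A hierarchical tree of the libraries was then built from 2197 other genes with an SD of at least 0.75, after the data had been seen. The tree fell into 15 sets of 3 libraries, the same sets with average and with complete linkage. No set held 2 listed replicates of 1 condition. These sets are described here as sets of samples, not as conditions. Within a set, the median difference between libraries was 0.14 in NFYA, 0.11 in NFYB and 0.10 in NFYC over 45 pairs, against 0.36, 0.30 and 0.41 over the 900 pairs that share neither a set nor a listed condition.

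Set 10 stood apart in all 3 subunits. It holds the libraries listed as siPSMD13 replicate 1, siEIF3L replicate 2 and siPOLR2D replicate 2, of 10001418, 10420406 and 8981244 reads. NFYA was 4.02, 4.04 and 4.69 log2 CPM there (168, 175 and 235 reads), below each of the other libraries, whose lowest was 4.78. Its libraries differed most in NFYA among the sets, by 0.66. NFYB was 6.31, 6.49 and 6.59 in the same libraries, above the highest of the others at 6.23. NFYC was 7.01, 6.90 and 6.81, also above the others, whose highest was 6.61. In these 3 libraries the DNA-binding subunit was thus at its lowest and both histone-fold subunits at their highest. Of 11143 genes with a log2 CPM of at least 1 in every library, 0.969% lay below all others in set 10 and 0.485% above. Among the listed genes, PDIA4, which encodes a disulfide isomerase of the endoplasmic reticulum, also lay below all others in set 10 (7.98, 8.21 and 8.26, beside a lowest other value of 8.28).

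Set 2 holds the libraries listed as siDPPA5 replicate 2, siPSMD13 replicate 3 and siTOX4 replicate 3. NFYA was 6.38, 6.27 and 6.24 there, above every other library (highest 5.85), as 5.84% of genes were. NFYB was 4.97, 5.20 and 4.94, among the lowest values of this subunit but not apart from set 1. NFYC was 5.41, 5.50 and 5.35, in the low part of its range. Set 2 thus lay on the other side of the median from set 10 in all 3 subunits. Of the subunits, NFYA alone lay beyond every other library in set 2. KRT8 (10.98 to 11.10) and KRT18 (9.95 to 10.08), keratins of simple epithelium, lay above all other libraries in set 2, and VIM (0.82 to 1.04) below. So did CCNB1, a mitotic cyclin gene (8.75 to 8.83), SQLE, the squalene epoxidase gene (8.21 to 8.28), LIN54, a gene of the cell cycle complex MuvB (6.06 to 6.20), and the histone-fold relative DRAP1 (7.77 to 7.80) above, and POLE4 (1.01 to 1.65) below. The part that these markers take in the NFYA values was not tested.

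Set 3 holds the libraries listed as siCCNK replicate 1, siTGM5 replicate 1 and siPSMD13 replicate 2. NFYC was 4.99, 4.95 and 5.04 there, below every other library (lowest 5.24), as 4.62% of genes were. NFYA (5.42, 5.57 and 5.54) and NFYB (5.91, 6.14 and 5.99) were above their medians, so that of the subunits NFYC alone was low. AURKA, a mitotic kinase gene, SREBF2, which encodes a sterol-response factor, and CHRAC1, a histone-fold relative, also lay below all other libraries in set 3. The listed genes named for a set were picked after their values were seen.

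**Figure D3:**
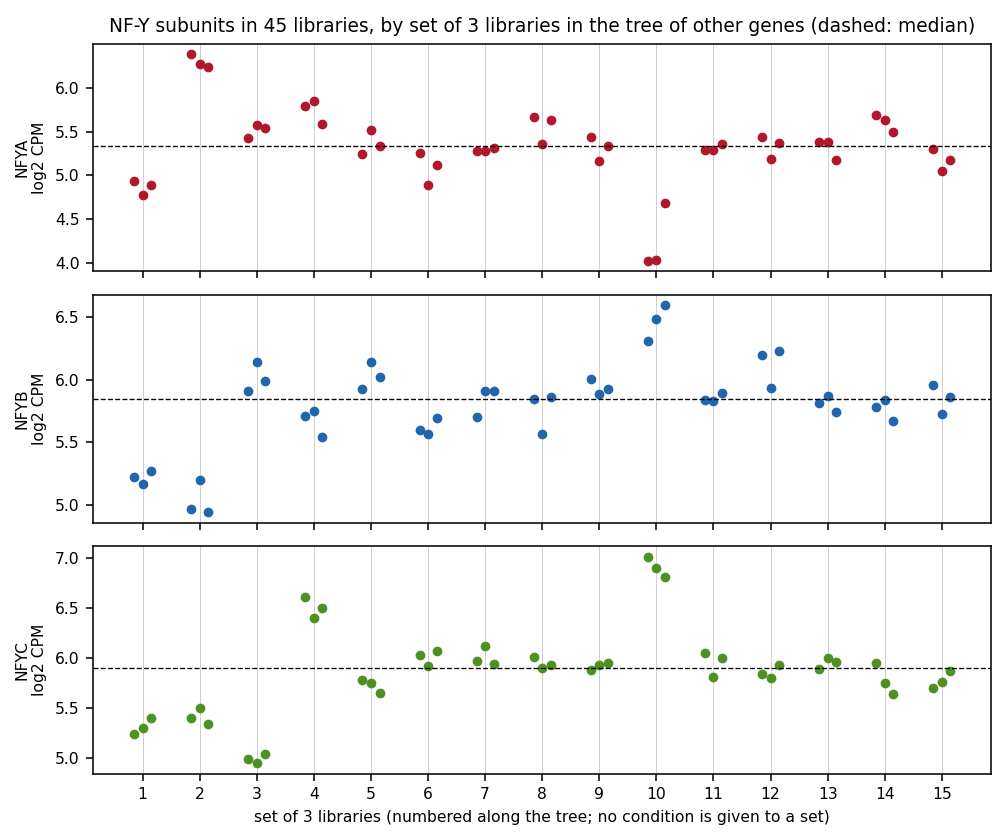
NFYA, NFYB and NFYC by set of 3 libraries from the tree of other genes. Vertical axes give log2 CPM, points are libraries and dashed lines the median of 45. Set 10 lies lowest in NFYA and highest in NFYB and NFYC, set 2 highest in NFYA, and set 3 lowest in NFYC.

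Correlations between the subunits over the 45 libraries were weak by rank. Spearman's rho was -0.14 for NFYA and NFYB, -0.19 for NFYA and NFYC, and 0.17 for the histone-fold pair NFYB and NFYC, over libraries that come in sets of 3 and are not independent points. Pearson's r was -0.47, -0.42 and 0.46, and these values leaned on few libraries. Without set 10, rho became 0.058, -0.0017 and -0.026. Without set 2, rho of NFYA and NFYB was 0.052. Taken on deviations from the mean of each set, rho of NFYA and NFYB was 0.69, which reads differences between libraries of a set and not between sets. Pearson's r on such deviations ran, over the listed genes, from -0.78 (SREBF2) to 0.79 (RRM2) with NFYB. With NFYA it ran from -0.66 (SREBF2) to 0.68 (RRM2), so values near this size were not particular to the pair.

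**Figure D4:**
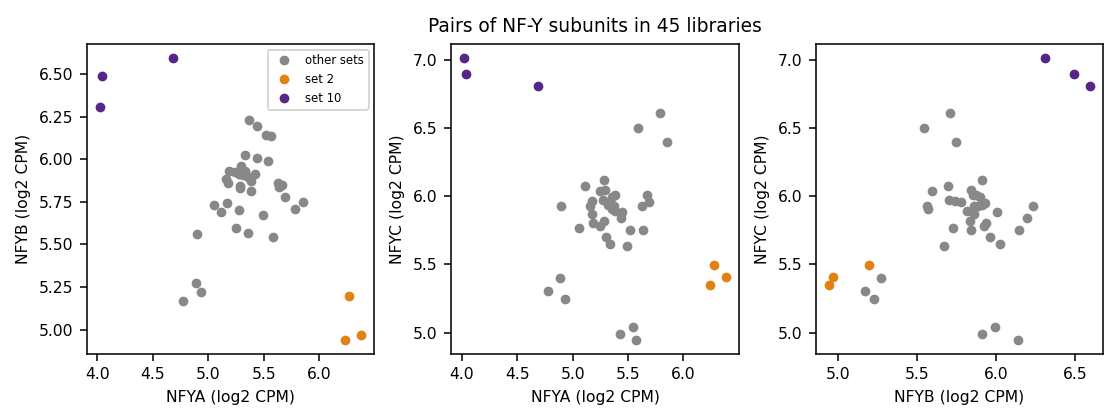
Each subunit against another in 45 libraries, on axes of log2 CPM. Purple points are set 10, orange points set 2 and grey points the other libraries. Sets 10 and 2 lie toward opposite corners in each panel, and set 3, among the grey points, lies below set 2 in NFYC.

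Genes whose levels ran most alike with each subunit were looked for among 11033 genes with a symbol and a log2 CPM of at least 1 in every library. For NFYA these were ZNF778, a zinc finger gene (rho 0.82), RIOK1, whose kinase takes part in maturation of the small ribosomal subunit (0.80), ZC3H14, which encodes a poly(A)-binding protein (0.80), and TCF12, which encodes an E-box factor (0.79). ZNF778 ranged from 2.64 to 5.43 log2 CPM and TCF12 from 6.23 to 7.43. For NFYB the first was its own processed pseudogene NFYBP1 (0.83), whose part in shared reads was not tested. APTX, a DNA end repair gene (0.80), AXIN2, a negative regulator and target of Wnt signalling (0.78), and CDKN3, which encodes a phosphatase of cyclin-dependent kinases (0.74), came next. For NFYC these were PCCB, which encodes a subunit of propionyl-CoA carboxylase (0.80), STRN4, a striatin gene (0.74), NFIC, which encodes a transcription factor of the nuclear factor I family (0.74), and BCL7B, a gene of chromatin remodelling complexes (0.72). Taken as Pearson correlations of deviations from set means, these likenesses were 0.34 to 0.71 for the genes named with NFYA, 0.31 to 0.60 with NFYB and -0.26 (PCCB, of opposite sign) to 0.52 with NFYC. The median rho over all genes compared was 0.058 with NFYA, 0.0036 with NFYB and 0.031 with NFYC. No subunit was among the 4 genes most alike to another subunit.

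In the listed siNFYA and mock libraries none of the listed NF-Y genes was called. Among 12 cell cycle genes with CCAAT boxes the median log2 fold change was 0.16 (from -0.44 to 0.49), among 7 endoplasmic reticulum stress genes 0.074 (from -0.37 to 0.91), and among 5 lipid synthesis genes 0.052 (from -0.075 to 0.14). The promoter partners had a median of 0.15, with 2 of 13 past an unadjusted threshold of 0.05 (3.82% of all genes tested passed it), FOXM1, which encodes a mitotic transcription factor (-0.65), and SP1, which encodes a GC-box factor (0.42), both named after their values were seen, and the histone-fold relatives 0.044. The median over all genes tested was 0.029. The 5 epithelial markers had a median of -0.023, and the 2 markers of other cells 0.55. Because the target gene goes against the list, these values describe the libraries as listed and not the response of these genes to an NFYA knockdown.

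Over the 45 libraries, the genes with CCAAT boxes had correlations of both signs with NFYA, read here beside the 57.7% of all genes compared that had a rho above 0. Of 12 cell cycle genes, 9 had a rho above 0 with NFYA, with a median of 0.26. CCNB2 (0.52) and PLK1, which encodes a mitotic kinase (0.42), had the highest, and E2F1, which encodes an S-phase transcription factor (-0.26), and CDC25B, a phosphatase gene of mitotic entry (-0.15), the lowest. With NFYB and NFYC the medians were 0.16 and 0.16. CCNB2, highest with NFYA, had -0.40 with NFYB, and CCNA2, an S-phase and mitotic cyclin gene, had 0.52 with NFYB. CCNA2 and CCNB2 were outside the rule for NFYB and are named after their values were seen. Pearson correlations of deviations from set means with NFYA were -0.074 for CCNB2, 0.27 for PLK1, 0.14 for E2F1 and -0.47 for CDC25B. CCNB2 and E2F1 thus turned sign.

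Of 7 endoplasmic reticulum stress genes, 6 had a rho above 0 with NFYA, with a median of 0.22. HSPA5 (0.36) and CALR, which encodes the lectin chaperone calreticulin (0.35), were highest, and HSP90B1, a chaperone gene (0.070), and DDIT3, which encodes the factor CHOP (-0.078), lowest. The medians were -0.11 with NFYB and -0.068 with NFYC, with 2 of 7 and 3 of 7 genes above 0, beside 50.6% and 54.6% of all genes compared. The difference between the subunits was not tested. For the 5 lipid synthesis genes the values with NFYA were 0.38 for FASN, the fatty acid synthase gene, 0.26 for SQLE, the squalene epoxidase gene, 0.054 for SREBF2, which encodes a sterol-response factor, 0.0094 for FDPS and -0.073 for HMGCS1, both of the mevalonate pathway. The median of these was 0.054, near the median over all genes. On deviations from set means, Pearson's r with NFYA was 0.48 for HSPA5, 0.60 for CALR, 0.52 for HSP90B1 and -0.38 for DDIT3. In the lipid list it was -0.13 for FASN, 0.22 for SQLE, -0.66 for SREBF2, -0.15 for FDPS and 0.17 for HMGCS1.

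The promoter partners spread the most. SP3, a GC-box factor gene (0.68), and USF1, an E-box factor gene (0.33), had the highest rho with NFYA, and RFX5, which encodes a subunit of the factor that acts with NF-Y on MHC class II promoters (-0.74), and ATF6, which encodes a sensor of endoplasmic reticulum stress (-0.37), the lowest. SP3 and RFX5 lay outside the central 90% of all genes compared, from -0.41 to 0.50, as did CCNB2 and the markers KRT8 and COL1A1. Of the 13 partners, 7 had a rho above 0, and the median was 0.010. Among the histone-fold relatives the values with NFYA were 0.49 for DR1 and -0.013 for DRAP1, the subunits of the repressor NC2, 0.14 for POLE3 and -0.15 for POLE4, subunits of DNA polymerase epsilon, and 0.050 for CHRAC1, of a chromatin remodelling complex.

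Some cell type markers had correlations with NFYA of the same size. KRT8 (0.51) and KRT18 (0.48) had a rho above 0 with it, KRT19 had 0.15, EPCAM -0.069 and CDH1, the E-cadherin gene, -0.25. COL1A1 had -0.63 and VIM 0.0026. All 5 epithelial markers measured had a rho below 0 with NFYB, from -0.53 for CDH1 to -0.077 for KRT19. Of all genes compared, 50.6% had a rho above 0 with NFYB. On deviations from set means, Pearson's r with NFYB was 0.62 for EPCAM, 0.52 for KRT8 and 0.33 for KRT18. For CDH1 it was -0.068 and for KRT19 -0.71. Rank correlations of this size with genes outside the NF-Y lists stand beside those of the CCAAT genes, and their part in them was not tested.

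**Figure D5:**
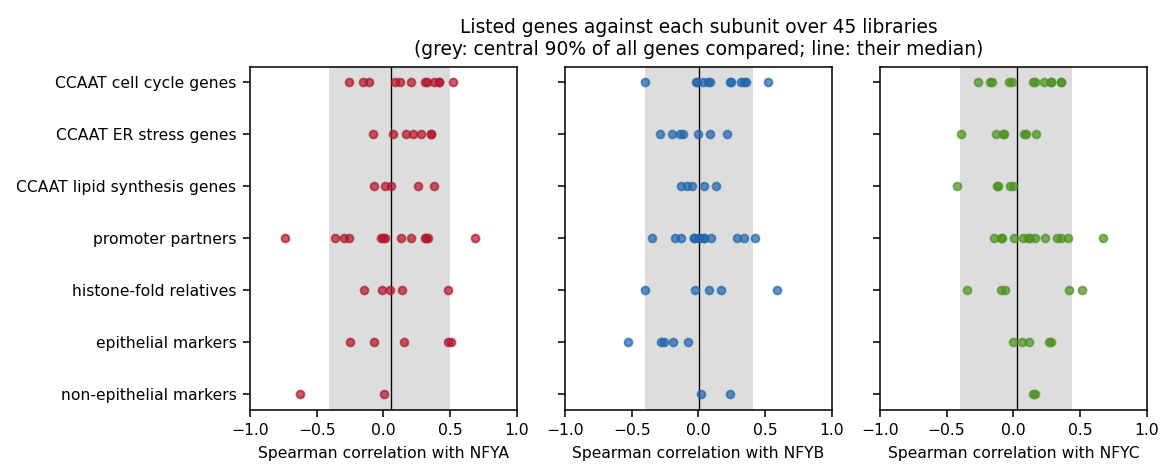
Spearman correlation of each listed gene with NFYA, NFYB and NFYC over 45 libraries. Points are genes, rows are lists, grey spans the central 90% of 11033 genes and the line is their median. For NFYA, the points outside the grey span are RFX5 (-0.74), COL1A1 (-0.63), SP3 (0.68), CCNB2 (0.52) and KRT8 (0.51).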

How the data were processed

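RNA-seq of 45 libraries was used. Per the labels and the study's methods, the authors called bases with CASAVA 1.8.2, aligned reads to GRCh37 with TopHat 1.4.1, obtained gene counts on Ensembl release 67 from HTSeq and normalised these counts with EdgeR and Limma-Voom. The library kit was TruSeq RNA v2. The deposited values are log2 counts per 1000000 reads (CPM), with 0.5 reads added to each count. With each library's lowest value read as 0 reads, 100% of values came out as whole reads within 0.001, which gave the depth and the reads printed. A log2 value understates the change of low genes.

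Columns were tied to samples by the study's sample list, and groups are those of the labels. Gene symbols matched 97.9% of 15698 identifiers. limma 3.58.1 in R 4.3.3 (lmFit, eBayes with trend, Benjamini-Hochberg adjustment) was fitted over all 45 libraries with 30 residual degrees of freedom, on genes that reached a log2 value of -1 in 3 or more libraries. It was tested on simulated data with an SD of 0.25, log2 changes of 2 and groups labelled as simulated. That setting does not cover listed groups that the target genes go against. Spearman correlations, in scipy 1.17.1, are descriptions without p. Named genes are the subunits, the 4 genes most alike to each, and per list the 2 highest and 2 lowest correlations with NFYA (all genes of a list of 5 or fewer). Exonic lengths are merged exons of GENCODE 44. The subunits and the lists were chosen with earlier results of these data known.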

Additional observations from a re-analysis of the deposited data

How the results depend on the processing

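The fold changes of listed siNFYA against listed mock kept their side of the threshold under each of 9 other settings: a replicate block, a fit of the 6 libraries alone, no filter, a stricter filter, median-centred libraries, quantile normalisation, eBayes without trend, voom weights and the other 13 siRNAs as control. They ran from 0.12 to 0.26 for NFYA, 0.12 to 0.28 for NFYB and 0.0061 to 0.14 for NFYC. Leaving out 1 library in turn gave 0.12 to 0.35, 0.060 to 0.40 and -0.12 to 0.32. NFYC reversed, to -0.12, without the library listed as mock replicate 2, and the cause was not tested. Calls stayed at 0 under each setting with a p-value, and fold change alone called 587 genes, none of them a subunit or listed NF-Y gene, by its construction without a test. The replicate numbers as listed did not pair the libraries: deviations of same-numbered libraries correlated from -0.57 to 0.83 over 315 pairs (median -0.00035). Of the 3 listed siNFYA libraries, 0 lay closest to their own number. These numbers come from the list that the target genes go against, so pairing by experiment could not be read from them. The replicate block gave 0.25, 0.27 and 0.13 for the 3 subunits and 0 calls.

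Correlations between subunits moved, by more than their jackknife error, in Pearson's r (-0.47 for NFYA and NFYB, -0.42 for NFYA and NFYC, 0.46 for NFYB and NFYC) and, for NFYA and NFYB, in deviations from set means (0.69). Leaving out 1 library in turn gave rho from -0.19 to -0.080, -0.24 to -0.13 and 0.11 to 0.22. Leaving out each set of 3 in turn, chosen after seeing the data, gave -0.29 to 0.058, -0.35 to -0.0017 and -0.026 to 0.33. The sign turned for NFYA and NFYB without set 10 (0.058) or set 2 (0.052), and for NFYB and NFYC without set 10. The spread over libraries ran from 2.25 to 2.44 for NFYA, 1.55 to 1.69 for NFYB and 1.95 to 2.13 for NFYC. Depth limits little here, since the lowest count of a subunit was 168 reads.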

Other observations

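The values of the other sets of libraries, which are sets of samples from the tree and not conditions, were as follows. In set 1 (libraries listed as mock replicate 2, siCDK10 replicate 2 and siPOLR2D replicate 3) all 3 subunits were low together. NFYA was 4.93, 4.78 and 4.89 log2 CPM, NFYB 5.22, 5.17 and 5.27, and NFYC 5.24, 5.30 and 5.40. Lower values of NFYA were seen in set 10, of NFYB in set 2 and of NFYC in set 3.

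In set 4 (siRGS18 replicate 2, siDPPA5 replicate 3 and siTGM5 replicate 3) NFYC was 6.61, 6.40 and 6.50, second to set 10, and NFYA was 5.79, 5.85 and 5.59. NFYB was 5.71, 5.75 and 5.54, below its median. The set therefore had more of NFYA and NFYC without more of NFYB.

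In set 6 (siBEGAIN replicate 1, siTOX4 replicate 1 and siSAP130 replicate 2) NFYA was 5.25, 4.90 and 5.11 and NFYB 5.60, 5.56 and 5.69, all below their medians, while NFYC was 6.03, 5.92 and 6.08, above its own. In the remaining sets NFYA lay between 5.05 (siBEGAIN replicate 3) and 5.69 (siDPPA5 replicate 1), NFYB between 5.57 (siBEGAIN replicate 2) and 6.23 (siSAP130 replicate 3), and NFYC between 5.64 (siEIF3L replicate 3) and 6.12 (mock replicate 3). The libraries listed as siNFYA replicates 1, 2 and 3 were in sets 8, 11 and 5, and those listed as mock in sets 13, 1 and 7.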
